A study of Homo sapiens with 52 samples.

Results

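The long noncoding RNAs MALAT1, NEAT1, KCNQ1OT1, MEG3, MIAT, PVT1, RMST, SNHG14, NORAD and OIP5-AS1 were followed in soma and neurite fractions of human neurons. They were taken by name, as a set of RNAs usually described as held in the nucleus, and all 10 were found among the 63241 genes counted. Soma holds nucleus and cytoplasm together, so neurites set against soma cannot show whether an RNA was held in the nucleus. NORAD and RMST were higher in neurites than in soma in all 5 conditions under TMM scaling, although scaling by library size turned the sign of NORAD in 3 conditions and of RMST in 1. MIAT was lower in neurites in all 5 under both scalings. Of the other 7 under TMM, PVT1 was called in no condition, and MEG3 was lower wherever it passed the filter on low counts. The calls of the rest depended on the condition. TDP43 knockdown raised 5 of the 9 that could be tested in soma, where 9.41% of all genes tested were called higher. None of those 5 passed the test for a rise in neurites, although PVT1 stood at nearly the same value there (0.44 against 0.47). The soma calls were lost under library sizes.

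The cells were i3Neurons, human neurons made from WTC11, an established induced pluripotent stem cell line, by a doxycycline-driven program. They were replated on day 3 onto inserts with pores of 1 µm and harvested on day 17, so that neurites growing through the membrane were collected apart from the cell bodies. Untreated cells carried no guide (no-sgRNA; 4 libraries per fraction). The hnRNPA1 experiment compared hnRNPA1-knockdown with nontargeting-sgRNA controls (6 libraries per group), and the TDP43 experiment compared TDP43-knockdown with its own nontargeting-sgRNA controls (5 per group), both by CRISPRi, in which a guide silences transcription of its target. All cells came from the same line and each target is represented by its knockdown label alone. The sources used here do not state how many guides or clones were used, nor whether numbered samples came from separate cultures, so a p-value speaks only for the scatter among these libraries.

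MALAT1 is a component of nuclear speckles, the stores of splicing factors, and NEAT1 is the scaffold on which paraspeckles assemble. KCNQ1OT1, MEG3 and SNHG14 come from imprinted loci, where 1 parental copy is expressed, and KCNQ1OT1 and SNHG14 are known to silence neighbouring genes on the same chromosome. MIAT forms nuclear domains in neurons, RMST acts with SOX2 in neurogenesis, PVT1 lies beside MYC, NORAD binds Pumilio proteins and is known to be largely cytoplasmic, and OIP5-AS1 (Cyrano) is known for its part in a microRNA network in the brain.

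Sequence motifs that are dense in NORAD, MIAT and NEAT1 are shown first, as the searched features in which members stood furthest from other long noncoding RNAs. No relation between motif and fraction was tested. The longest GENCODE release 29 transcript of each member was searched on its sense strand, with matches of a motif allowed to overlap each other, beside 5762 other long noncoding genes. NORAD held 15 matches to the Pumilio motif TGTANATA, or 2.81 per kb, a density above 99.95% of the other genes, of which 18.9% held any match. MIAT held 7 matches to TACTAAC, the motif of the branch point protein SF1, or 0.69 per kb, above 99.3% of the others, of which 6.01% held any. NEAT1 held 66 matches to GTGTGT, a TDP-43 binding motif, or 2.90 per kb, above 97.6% of the others, of which 45.8% held any. Of these matches, 27 overlapped each other inside 1 repeat of GT within 60 bases, so much of this density comes from a single run. In the other members TGTANATA reached at most 0.31 matches per kb (SNHG14), and TACTAAC reached at most 0.19 (NORAD). GTGTGT reached at most 0.94 (NORAD), above 87.0% of the other genes. The hnRNPA1 motif TAGGG and the motif AGCCC, described for nuclear retention, set no member apart: the highest densities, 0.99 per kb of TAGGG and 1.48 per kb of AGCCC, stood above 81.3% and 60.5% of the other genes. A match is a description of the letters and does not show that a protein is bound.

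The windows below are 60 bases of the transcript strand (hg38 positions, 5′ to 3′) with the motif in capitals; the first 2 hold paired Pumilio motifs of NORAD, the next MIAT's cluster of branch point motifs, and the last NEAT1's run of GTGTGT. Among 237730 windows of this length in the other genes, 0.54% held TGTANATA at all and 0.0135% held 2 or more, 0.148% held TACTAAC and none held 3 or more, and 1.73% held GTGTGT. Those windows were laid end to end from the transcript start, which can split a cluster. The printed windows were placed around matches and chosen to hold the most. The shares therefore make the printed windows look rarer than windows placed alike would, and are descriptions only.
NORAD exon 1, chr20:36049486-36049545, minus strand: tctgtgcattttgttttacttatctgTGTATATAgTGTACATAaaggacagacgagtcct
NORAD exon 1, chr20:36047653-36047712, minus strand: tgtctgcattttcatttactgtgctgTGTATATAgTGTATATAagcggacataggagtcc
MIAT exon 5, chr22:26672171-26672230, plus strand: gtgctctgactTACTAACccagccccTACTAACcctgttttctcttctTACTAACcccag
NEAT1 exon 1, chr11:65444263-65444322, plus strand: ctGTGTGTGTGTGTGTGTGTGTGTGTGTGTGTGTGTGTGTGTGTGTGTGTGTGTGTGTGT

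**Figure D1:**
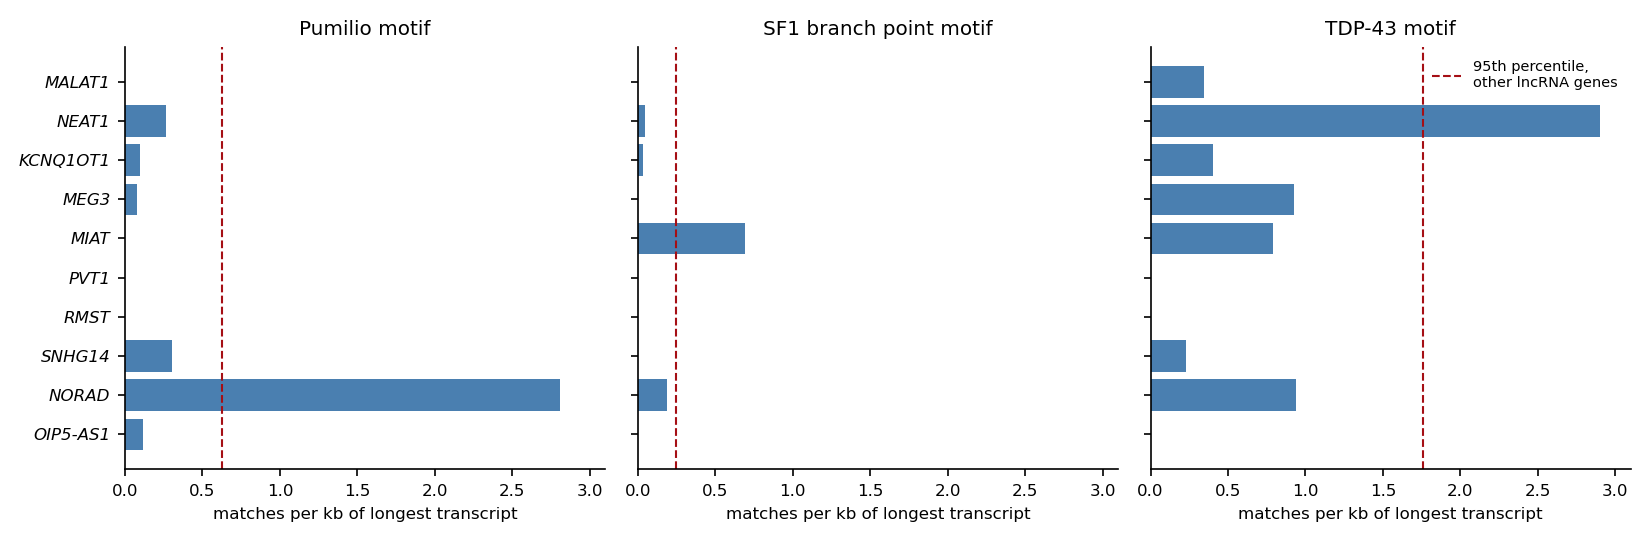
Matches per kb of the longest transcript of each member (bars) for the Pumilio, SF1 branch point and TDP-43 motifs, with the 95th percentile of 5762 other long noncoding genes (dashed). NORAD (2.81 per kb), MIAT (0.69) and NEAT1 (2.90) are the members past the dashed line in the respective panels.

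The files hold expected counts per gene. The labels give 10 ng of RNA for every library, so levels compare shares of the RNA and not amounts per cell. Depth, in units of 1e+06 counts per library, was 2.54 to 4.35 in untreated neurites, 5.21 to 10.5 in untreated soma and 6.26 to 28.9 in the knockdown experiments. Sample 5 of TDP43 knockdown soma, with 541 counts, was not used, so that group has n = 4. Levels are in CPM, counts scaled to 1e+06 per library after TMM scaling of each experiment on its own, so levels set across experiments are descriptions. HNRNPA1 fell from 361 ± 20.7 to 141 ± 9.35 CPM in soma and from 590 ± 32.6 to 201 ± 16.0 in neurites in its knockdown (mean ± SD, n = 6 each), and TARDBP, the TDP43 gene, from 111 ± 4.59 (n = 5) to 19.5 ± 0.93 (n = 4) in soma and from 117 ± 7.26 to 41.8 ± 4.26 in neurites (n = 5 each), with no overlap of libraries. All 13 neuron markers averaged at least 1 CPM in every group, and of 9 pluripotency markers 5 did so in untreated neurites, 7 in untreated soma and 1 or 2 in each other group. Their summed level was 10.6 to 18.3 CPM in untreated neurites, 11.8 to 20.7 in untreated soma and 3.37 to 10.4 elsewhere, and POU5F1 and UTF1 were under 1 CPM in every group. The part of such cells in the differences between untreated and other cells was not tested. Library kits differed (version 2 for untreated cells, version 3 for the others), so kit and experiment cannot be told apart.

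The direction of a neurite to soma ratio depends on the scaling. With library sizes in place of TMM the median of all genes moved from -0.21 to -1.43 on the log2 scale in untreated cells, and to between -0.40 and -0.63 in the other 4 conditions. RN7SL1, the RNA part of the machinery that targets proteins for secretion, held 0.91% of counts in neurites and 0.30% in soma of untreated cells, and a mean of 6.72 to 17.8% of counts in neurites of the other conditions against 1.36 to 1.98% in soma; its part in the scaling was not tested. Some members are therefore given also relative to the median of all genes tested. A change of scaling shifts all genes by about the same amount, so such a value is nearly the same under both by construction. It places a member among the genes tested and does not show whether its level was higher or lower.

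Per kilobase of exons, NORAD was the member of highest mean level in all 10 groups, from 60.9 CPM per kb in TDP43 knockdown soma to 102 in hnRNPA1-experiment control neurites. RMST came next in untreated neurites (84.8 CPM per kb) and stood between the fourth and sixth place in the other 9 groups. MEG3 was the lowest in every group. Its group means were 7.53 CPM in untreated neurites and 13.9 in untreated soma, and from 0.032 to 1.08 CPM elsewhere. The 10 together held 0.22 to 0.26% of counts in neurites and 0.36 to 0.56% in soma, as means over groups. KCNQ1OT1, annotated as 1 exon of 91.7 kb, was low on this scale at 1.93 to 3.23 CPM per kb although it reached 118.7 to 319.8 CPM.

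**Figure D2:**
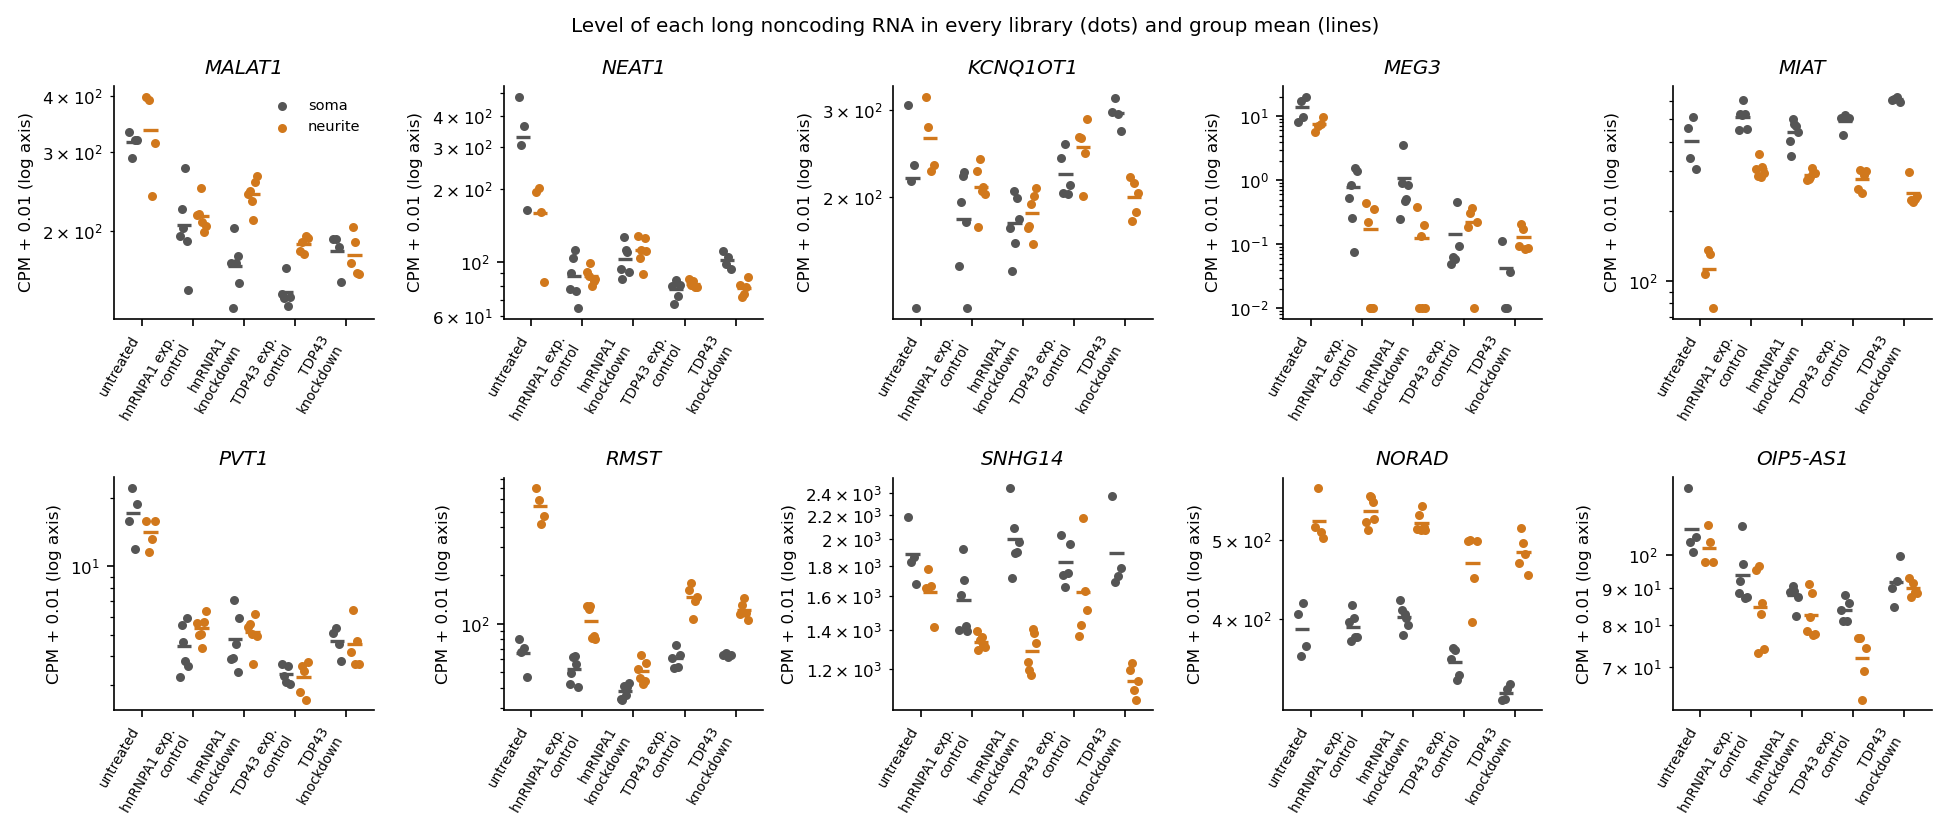
CPM of each member (log axis, 0.01 added) in every library (dots) with the group mean (lines), soma in grey and neurites in orange, in the 5 conditions. NORAD and RMST lie higher in neurites, MIAT lies lower in neurites, and MEG3 is near 0 outside untreated cells.

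Between neurites and soma, 5 of 10 members were called in untreated cells (2 higher, 3 lower), against 56.5% of all 18556 genes tested. Calls are adjusted p under 0.05 in edgeR's quasi-likelihood test, 2-sided, with Benjamini-Hochberg adjustment over all genes, and a log2 change is followed by ± its standard error. The hnRNPA1-experiment controls gave 2 higher and 3 lower of 10 (48.4% of all genes called), hnRNPA1 knockdown 3 and 3 of 10 (35.8%), the TDP43-experiment controls 3 and 2 of 9 (46.5%), and TDP43 knockdown 2 and 4 of 9 (57.7%). The median change of the members was -0.15, 0.04, 0.08, 0.08 and -0.08 in that order, and that of all genes -0.21, -0.05, -0.02, -0.03 and -0.03. The members' share called was 60% in hnRNPA1 knockdown, above the share of all genes, and the other 4 lay nearer to it; no difference between the shares was tested. A lower level in bulk RNA cannot tell fewer cells from less RNA per cell.

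MALAT1 (chr11:65497688-65506516, 1 exon) was not called in 3 of 5 conditions and was higher in neurites in the other 2 under TMM. In untreated cells it stood at 238, 314, 393 and 399 CPM in neurites and at 291, 320, 320 and 332 in soma, and the groups overlapped (0.08 ± 0.13, adjusted p = 0.587; without neurite sample 6, 0.31 and called, adjusted p = 0.0258). It was higher in neurites of hnRNPA1 knockdown (211 to 265 CPM, median 243, against 134 to 202, median 169; 0.54 ± 0.10, adjusted p = 4.01e-05, n = 6 each). It was higher too in neurites of the TDP43-experiment controls (177, 179, 188, 192 and 195 CPM against 135, 141, 142, 144 and 165; 0.36 ± 0.07, adjusted p = 0.000132), and in neither comparison did libraries overlap. Under library sizes the first of these was 0.09 and not called, the second turned to -0.26, also not called, and the untreated value became -1.17, a lower call. The hnRNPA1-experiment controls (0.07 ± 0.10 under TMM) and TDP43 knockdown (-0.04 ± 0.07) were also called lower under library sizes, at -0.28 (adjusted p = 0.0178) and -0.59 (adjusted p = 0.000243).

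NEAT1 (chr11:65422774-65445540, 1 exon, beside MALAT1) was lower in untreated neurites, at 82.7, 161, 194 and 202 CPM against 165, 305, 367 and 483 in soma (-1.06 ± 0.25, adjusted p = 0.00121). The groups overlapped, and the soma libraries alone differed by almost 3 times. The 2 sets of controls gave 0.01 ± 0.10 and 0.08 ± 0.06, neither called under TMM and both called lower under library sizes. NEAT1 was lower again in neurites of TDP43 knockdown, at 71.6, 74.1, 78.8, 80.4 and 86.5 CPM against 93.6, 98.7, 105 and 111 (-0.37 ± 0.07, adjusted p = 2.51e-05), with no overlap.

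MIAT (chr22:26646428-26676475) was the member with the clearest soma bias. Untreated neurites held 76.2, 107, 130 and 136 CPM and soma 304, 342, 460 and 512, or 27.8% of the soma mean (-1.85 ± 0.17, adjusted p = 5.56e-09). In the hnRNPA1-experiment controls neurites ran from 283 to 354 CPM (median 298) and soma from 451 to 604 (median 525), a change of -0.75 ± 0.07 (adjusted p = 4.13e-10). The change was -0.61 ± 0.08 in hnRNPA1 knockdown, -0.84 ± 0.08 in the TDP43-experiment controls and -1.34 ± 0.08 in TDP43 knockdown, each called. Neurite and soma libraries did not overlap in any of the 5 conditions, and MIAT was lower under both scalings.

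RMST (chr12:97430884-97598415), which is transcribed in neural precursors and young neurons, had the opposite pattern. Untreated neurites held 421, 469, 589 and 700 CPM and soma 46.8, 66.5, 70.7 and 80.5, an 8.23-fold ratio of means (3.03 ± 0.16, adjusted p = 6.42e-13). The hnRNPA1-experiment controls held 79.8 to 130 CPM in neurites (median 103) and 40.5 to 63.2 in soma (median 52.6), with a change of 1.00 ± 0.12, and the TDP43-experiment controls gave 1.27 ± 0.10. In those 3 conditions, and in TDP43 knockdown (0.93 ± 0.11), no library of 1 fraction overlapped the other. In hnRNPA1 knockdown the groups overlapped by a narrow margin (42.1 to 63.6 CPM against 33.6 to 42.7) and the change was 0.42 ± 0.13 (adjusted p = 0.0128); without knockdown neurite sample 3 the call was lost (adjusted p = 0.0574), and under library sizes the value was -0.02. The summed level of 13 neural progenitor markers was also higher in neurites than in soma, at 248 to 281 against 97.4 to 104 CPM in untreated cells and 471 to 583 against 262 to 288 CPM in the hnRNPA1-experiment controls, with HES1 and ID3 under 1 CPM in each of these groups. Of these markers 6 were tested in untreated cells (3 higher, none lower) and 11 in the hnRNPA1-experiment controls (7 higher, 2 lower). Some other sums were higher in untreated neurites too, and some were lower. Neuron markers summed to 22130 to 28120 against 7488 to 8886 CPM, with 6 of 13 tested genes called higher and 4 lower. Cycling cell markers summed to 92.48 to 107.3 against 48.45 to 73.93 CPM (5 of 11 higher, 1 lower). Astrocyte and oligodendrocyte markers summed to 171.5 to 193.3 against 210.3 to 228.2 CPM, and mesenchymal cell markers to 76.18 to 88.43 against 100 to 114.7 CPM. The part of progenitor cells or genes in the RMST result was not tested.

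NORAD (chr20:36045622-36050960, 1 exon), which sequesters Pumilio proteins, was higher in neurites in every condition under TMM. Untreated neurites held 503, 512, 519 and 579 CPM and soma 361, 371, 406 and 419 (0.44 ± 0.10, adjusted p = 0.000903). The change was 0.47 ± 0.04 and 0.40 ± 0.06 in the 2 sets of controls, 0.38 ± 0.05 in hnRNPA1 knockdown and 0.57 ± 0.07 in TDP43 knockdown, with no overlap of libraries in any condition. Under library sizes NORAD was lower in untreated neurites (-0.80, called), and was not called in the other 4 conditions (-0.19 to 0.12). Under TMM it stood 0.41 to 0.65 above the median of all genes tested.

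OIP5-AS1 (chr15:41283990-41309737) was called only in the TDP43-experiment controls, at 63.0, 69.0, 74.2, 76.7 and 76.8 CPM in neurites and 81.0, 81.1, 83.8, 85.9 and 88.2 in soma (-0.22 ± 0.06, adjusted p = 0.0021). Its values in the other conditions ran from -0.14 to -0.03 under TMM; that of the hnRNPA1-experiment controls (-0.14 ± 0.06, adjusted p = 0.0651) was called without neurite sample 1 or 3 or soma sample 5 or 6 (-0.18 to -0.16), and with no filter on low counts. Under library sizes it was called lower in all 5. PVT1 was called in no condition under TMM, with values from -0.27 ± 0.20 to 0.24 ± 0.16. Its 3.01 to 22.2 CPM in soma rested on 33 to 285 counts per library.

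Of the imprinted members, SNHG14 (chr15:24978583-25419462), the host of 2 large clusters of small nucleolar RNAs, was lower in neurites of the hnRNPA1-experiment controls (1293 to 1394 CPM, median 1333, against 1397 to 1922, median 1514; -0.24 ± 0.08, adjusted p = 0.0119). It was lower by more in hnRNPA1 knockdown (-0.64 ± 0.08) and in TDP43 knockdown (-0.72 ± 0.11), and libraries did not overlap in these 3 comparisons. Without hnRNPA1-experiment control soma sample 3 the first call was lost (adjusted p = 0.0514). KCNQ1OT1 (chr11:2608328-2699994) was called in TDP43 knockdown alone, at 179, 187, 203, 213 and 219 CPM in neurites against 273, 295, 298 and 318 in soma (-0.56 ± 0.09, adjusted p = 2.76e-06). Its other values were 0.07 to 0.26. They were called higher without untreated soma sample 4 (0.47), without soma sample 3 or 4 of the hnRNPA1-experiment controls (0.28 and 0.29), and without neurite sample 4 or soma sample 1 or 4 of the TDP43-experiment controls (0.25, 0.21 and 0.24). In the main fits none of them passed with all libraries. Fits with the replicate number as a block called higher that of untreated cells (0.33, adjusted p = 0.0187) and that of the hnRNPA1-experiment controls (0.24, adjusted p = 0.023). The latter was also called with no filter on low counts (0.18, adjusted p = 0.0326). Under library sizes 3 of them (untreated, hnRNPA1 knockdown and TDP43-experiment controls) turned to lower calls. MEG3 (chr14:100779410-100861031) was lower in untreated neurites (5.69, 7.04, 7.62 and 9.78 CPM against 8.18, 9.75, 17.2 and 20.3; -0.81 ± 0.30, adjusted p = 0.030), a call lost without any 1 of 5 of the 8 libraries. In the hnRNPA1 experiment MEG3 was called lower at 0 to 29 counts per control library and 0 to 47 per knockdown library; the control call was lost without any 1 of 4 of the 12 libraries. In the TDP43 experiment MEG3 did not pass the filter on low counts.

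Overlapping or adjoining genes can affect the counts of at least 3 of these RNAs. KCNQ1OT1 is antisense to KCNQ1, SNHG14 runs antisense across UBE3A, and OIP5-AS1 starts beside OIP5. The sources used here do not say whether counting was stranded or how multi-mapping reads were handled, so reads of these partners may not be told apart. The partners differed in counted level. Group means were 0 to 0.19 CPM for OIP5, 0.77 to 1.2 for KCNQ1 and 162 to 343 for UBE3A. Those of OIP5-AS1 were 71.9 to 109 CPM, of KCNQ1OT1 177 to 296 and of SNHG14 1148 to 2006. The part of partner reads in the members' counts was not tested. Fractional counts occurred in 100% of libraries for KCNQ1OT1 and SNHG14, 88.2% for OIP5-AS1, 86.3% for NORAD and 66.7% for MALAT1. They occurred in 52.9% for MIAT, 39.2% for RMST, 29.4% for NEAT1, 7.84% for PVT1 and 1.96% for MEG3. Such values would arise if reads were shared between features, which the sources used here do not state.

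Nuclear small RNAs were read beside the members, although neurites against soma cannot show whether an RNA was held in the nucleus. Of 17 listed, 8 to 10 were tested, and 6, 8, 8, 6 and 8 of them were lower in neurites of untreated cells, hnRNPA1-experiment controls, hnRNPA1 knockdown, TDP43-experiment controls and TDP43 knockdown. In that order, 56.5, 48.4, 35.8, 46.5 and 57.7% of all genes were called in either direction. Their median change was -2.23, -1.47, -1.76, -1.17 and -1.54, against -0.15 to 0.08 for the 10 members. RNU5B-1, a spliceosomal RNA, stood at -3.01 ± 0.43 in untreated cells, and RNU5A-1 at -2.43 ± 0.26 in the hnRNPA1-experiment controls. RMRP, which also works in mitochondria, was higher in neurites in 2 conditions, at 0.70 ± 0.16 in hnRNPA1 knockdown and 0.61 ± 0.23 in the TDP43-experiment controls. RN7SK was listed at 0 in every library.

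**Figure D3:**
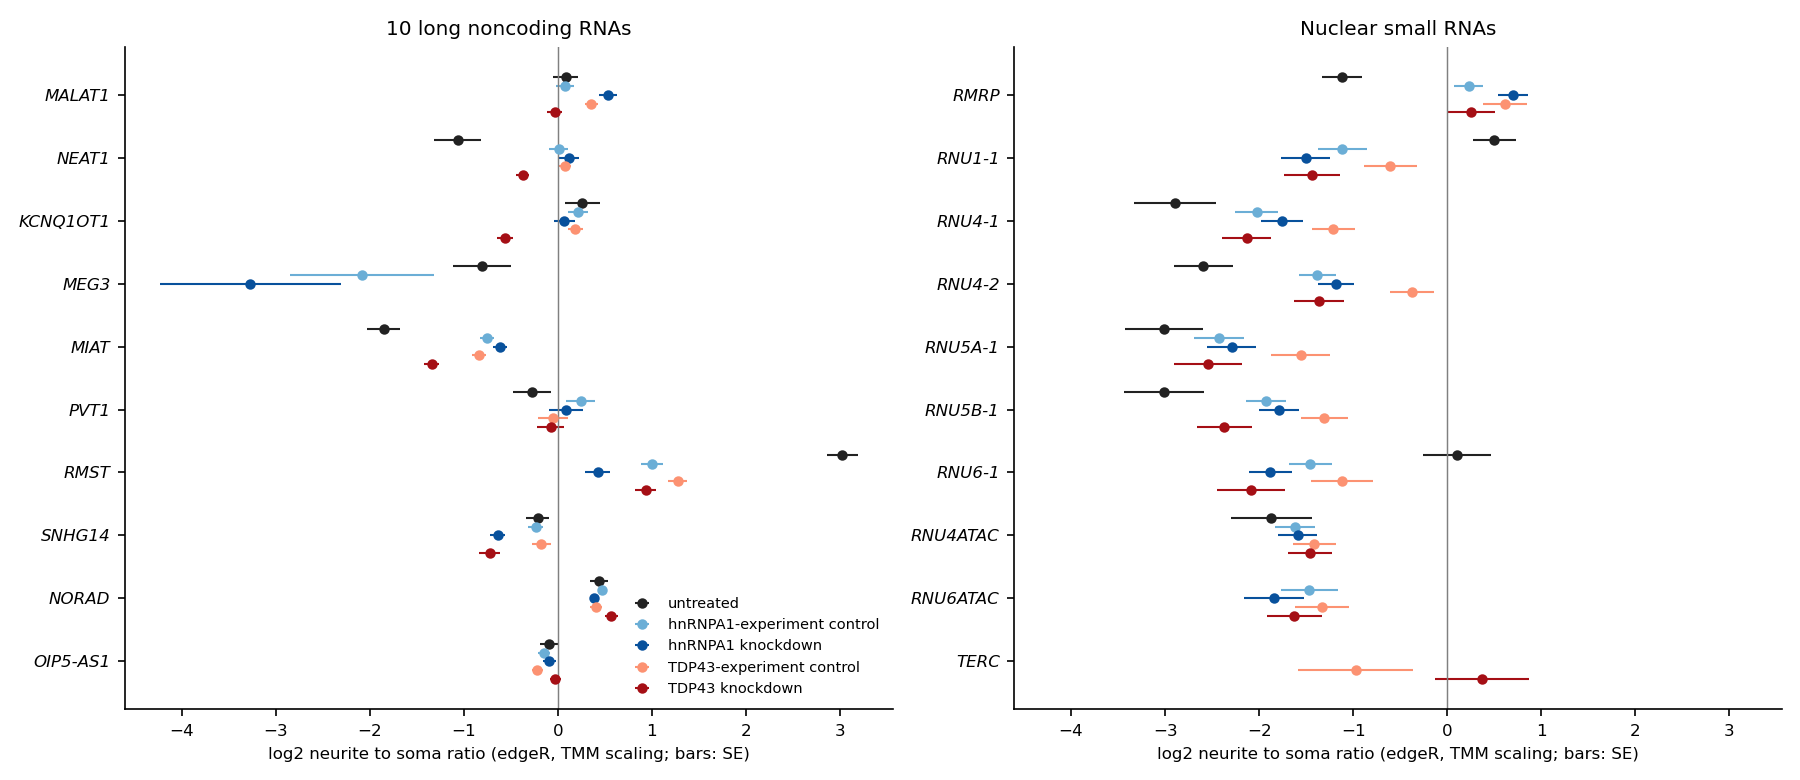
Log2 neurite to soma ratio (edgeR, TMM scaling, bars are SE) of the 10 members (left) and of the nuclear small RNAs that were tested (right) in the 5 conditions. RMST reaches 3.03 and MIAT -1.85 in untreated cells; MALAT1 lies between -0.04 and 0.54, while most spliceosomal RNAs lie below -1; under library sizes in place of TMM the ratios shift down, and those of NORAD and MALAT1 turn negative in untreated cells and in TDP43-experiment controls.

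Ratios of 2 members within a library need no scaling between libraries, and 10 such comparisons were made with exact permutation tests, adjusted together. The log2 ratio of NORAD to MALAT1 was 1.33 ± 0.12 (SD) in neurites and 0.96 ± 0.28 in soma of the hnRNPA1-experiment controls (n = 6 each, exact p = 0.00866, adjusted p = 0.0397). In TDP43 knockdown it was 1.46 ± 0.09 in neurites (n = 5) and 0.86 ± 0.18 in soma (n = 4; exact p = 0.0159, adjusted p = 0.0397). The other 3 conditions did not pass, with differences of 0.38 (untreated), 0.04 (TDP43-experiment controls) and -0.16 (hnRNPA1 knockdown). Without soma sample 3 of hnRNPA1 knockdown the last of these was -0.235 (exact p = 0.039, unadjusted). NEAT1 to MALAT1 was lower in neurites of hnRNPA1 knockdown, at -1.12 ± 0.14 against -0.70 ± 0.09 (n = 6 each, exact p = 0.00217, adjusted p = 0.0217; the smallest p possible), and of the TDP43-experiment controls, at -1.19 ± 0.11 against -0.92 ± 0.10 (n = 5 each, exact p = 0.0159, adjusted p = 0.0397). In untreated cells its difference was -1.09 (exact p = 0.0571, adjusted p = 0.0816), in the hnRNPA1-experiment controls -0.06 (exact p = 0.372), and in TDP43 knockdown -0.35 (exact p = 0.0317, adjusted p = 0.0635).

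Untreated and control cells differed in where several members lay. In 1 fit of all 10 groups, the neurite to soma ratio of untreated cells differed from that of the hnRNPA1-experiment controls for 5 of 10 members (1 higher, 4 lower; 37.5% of all genes called) and from that of the TDP43-experiment controls for 4 (1 higher, 3 lower; 38.2% of all genes). RMST was higher against both (1.75 ± 0.19 and 1.55 ± 0.20), and NEAT1 (-1.35 ± 0.22 and -1.34 ± 0.23) and MIAT (-1.37 ± 0.16 and -1.21 ± 0.17) were lower against both. PVT1 (-0.78 ± 0.24) and NORAD (-0.30 ± 0.09) were lower against the hnRNPA1-experiment controls, and MALAT1 (-0.47 ± 0.15) against the TDP43-experiment controls, and DESeq2 called none of these 3 (adjusted p = 0.0681, 0.162 and 0.0981). The MALAT1 call was also lost without untreated neurite sample 6 (-0.34, adjusted p = 0.0656). Against the hnRNPA1-experiment controls, leaving out 1 library added lower calls for KCNQ1OT1 (untreated soma sample 7, -0.43), OIP5-AS1 (control soma sample 3, -0.27) and MALAT1 (control soma sample 4, -0.37). The median of all genes was itself -0.42 and -0.49 in these comparisons, so PVT1 stood at -0.36, NORAD at 0.12 and MALAT1 at 0.02 relative to it. Between the 2 sets of controls no member was called by edgeR (4.80% of all genes), nor by DESeq2, and 1, MEG3, had an unadjusted p under 0.05 by edgeR.

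hnRNPA1 is a splicing factor that shuttles between nucleus and cytoplasm. Its knockdown changed 3 of 10 members in soma (1 higher, 2 lower; 7.09% of all genes called) and 2 in neurites (1 higher, 1 lower; 16.2% of all genes). MIAT, at -0.23 ± 0.07 in soma, missed the threshold (adjusted p = 0.0592) and was called lower by DESeq2 (adjusted p = 0.0435), with no filter on low counts (adjusted p = 0.00401), with the replicate block (adjusted p = 0.0209) and without control soma sample 1 or 6 or knockdown soma sample 3 (-0.27 to -0.26). The members' median change was 0.00 in soma and -0.06 in neurites, and that of all genes was 0.00 in both. RMST fell in both fractions. Control neurites held 79.8 to 130 CPM (median 103) and knockdown neurites 42.1 to 63.6 (median 48.9), with no overlap, or 48.6% of the control mean (-1.04 ± 0.13, adjusted p = 6.87e-07, n = 6 each). In soma RMST went from 40.5 to 63.2 CPM (median 52.6) to 33.6 to 42.7 (median 38.1), with overlap (-0.47 ± 0.13, adjusted p = 0.0175); without control soma sample 3 or 4 that call was lost (adjusted p = 0.0567 and 0.0556). The summed progenitor markers ran the other way, from 471 to 583 CPM in control neurites and from 583 to 733 in knockdown neurites. Most of these markers did not pass on their own. Of 11 tested, 3 were called higher, 1 (SOX1) lower and 7 not, with a median change of 0.06. The part of these markers in the RMST result was not tested.

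SNHG14 rose in hnRNPA1 knockdown soma, from 1397 to 1922 CPM (median 1514) to 1721 to 2447 (median 1943), with overlap (0.35 ± 0.08, adjusted p = 0.00363), and stood at -0.05 ± 0.08 in neurites. NEAT1 rose in neurites, from 79.8 to 99.1 CPM (median 86.5) to 89.7 to 128 (median 112), with overlap (0.35 ± 0.11, adjusted p = 0.0235); the call was lost without knockdown neurite sample 1 or 5 (adjusted p = 0.0645 and 0.0623) and under library sizes. MALAT1 fell in soma at the edge of the threshold (147 to 276 CPM, median 199, to 134 to 202, median 169; -0.30 ± 0.10, adjusted p = 0.0495). That call was lost without any 1 of 8 of the 12 soma libraries, with values from -0.32 to -0.20, and with counts rounded down. The neurite to soma ratio was changed for no member by edgeR (0.177% of all genes called), with 3 members, MALAT1, RMST and SNHG14, at an unadjusted p under 0.05, and DESeq2 called SNHG14 (-0.42, adjusted p = 0.0395). By edgeR these 3 stood at 0.47 ± 0.14, -0.58 ± 0.18 and -0.40 ± 0.11 (adjusted p = 0.226, 0.253 and 0.164). Without control soma sample 3 edgeR called SNHG14 (-0.47, adjusted p = 0.026). NORAD and OIP5-AS1 were within ± 0.10 in each fraction under TMM. Under library sizes NORAD was called lower in neurites (-0.19, adjusted p = 0.0287), as was KCNQ1OT1 (-0.33, adjusted p = 0.0481; -0.18 ± 0.11 and not called under TMM). Of 9 nuclear small RNAs tested, 5 rose in knockdown soma and 3 in neurites (medians 0.61 and 0.68), and none fell. DESeq2 called 1 higher in soma and 4 in neurites. Of all genes, edgeR called 7.09% in soma and 16.2% in neurites.

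TDP43 (TDP-43) binds GU-rich RNA and regulates splicing and RNA stability. In soma its knockdown raised 5 of the 9 members tested and lowered none (18.9% of all genes called, 9.41% higher; median 0.30 for the members and 0.02 for all genes). KCNQ1OT1 rose from 202, 204, 211, 239 and 256 CPM to 273, 295, 298 and 318 (0.41 ± 0.08, adjusted p = 0.000667), and NEAT1 from 67.4, 72.6, 80.0, 80.7 and 84.8 to 93.6, 98.7, 105 and 111 (0.40 ± 0.06, adjusted p = 2.83e-05). MIAT rose from 427, 505, 506, 508 and 524 CPM to 597, 603, 610 and 627 (0.30 ± 0.08, adjusted p = 0.00886). PVT1 rose from 3.01, 3.08, 3.26, 3.62 and 3.71 CPM to 3.81, 4.52, 5.07 and 5.36 (0.47 ± 0.13, adjusted p = 0.0105), a call lost without knockdown soma sample 2 (adjusted p = 0.0560). In these 4 the groups did not overlap. They did not overlap for NORAD either, which stood lower in the knockdown and was not called (-0.13 ± 0.07, adjusted p = 0.20). The share of all genes without overlap was not computed. MALAT1 rose from 135, 141, 142, 144 and 165 CPM to 153, 184, 192 and 192, with overlap (0.31 ± 0.07, adjusted p = 0.00304).

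In neurites TDP43 knockdown changed 4 of 9 (1 higher, 3 lower; 24.8% of all genes called; median -0.09 for the members and -0.03 for all genes), and none of the 5 that rose in soma was called higher there. SNHG14 fell from 1368, 1430, 1518, 1633 and 2172 CPM to 1065, 1105, 1145, 1196 and 1228, with no overlap (-0.50 ± 0.10, adjusted p = 0.000731). KCNQ1OT1 fell from 201, 246, 263, 265 and 288 CPM to 179, 187, 203, 213 and 219, with overlap (-0.34 ± 0.08, adjusted p = 0.00313). OIP5-AS1 rose from 63.0, 69.0, 74.2, 76.7 and 76.8 CPM to 87.4, 88.8, 89.0, 91.5 and 93.0, with no overlap (0.32 ± 0.06, adjusted p = 0.000162). RMST fell by a little (-0.28 ± 0.10, adjusted p = 0.0446), a call lost with DESeq2 (adjusted p = 0.0622) and without any 1 of 6 of the 10 libraries, and PVT1 stood at 0.44 ± 0.17 (adjusted p = 0.0592), close to its soma value of 0.47. Without control neurite sample 6 or knockdown neurite sample 5 PVT1 was called higher (0.51 and 0.52, adjusted p = 0.0492 and 0.0406). MIAT stood at -0.20 ± 0.08 (adjusted p = 0.0642) and was called lower without control neurite sample 1 or 4 or knockdown neurite sample 1 (-0.24, -0.24 and -0.29).

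The neurite to soma ratio was lowered by TDP43 knockdown for 5 of 9 members and raised for none (10.5% of all genes called, 4.67% lower; median -0.39 for the members and -0.01 for all genes). KCNQ1OT1 moved the most (-0.75 ± 0.12, adjusted p = 0.000173), followed by SNHG14 (-0.55 ± 0.15, adjusted p = 0.020), MIAT (-0.50 ± 0.11, adjusted p = 0.00541), NEAT1 (-0.45 ± 0.09, adjusted p = 0.0021) and MALAT1 (-0.39 ± 0.10, adjusted p = 0.0146). NORAD (0.17 ± 0.09) and OIP5-AS1 (0.19 ± 0.08) stood on the other side of 0 and were not called, and PVT1 stood at -0.03 ± 0.22. RMST, at -0.34 ± 0.15, was called without control neurite sample 4 (-0.43, adjusted p = 0.0218). In the separate fractions the members' median change was 0.30 in soma and -0.09 in neurites. Nuclear small RNAs had medians of -0.10 in soma and -0.89 in neurites. Of 10 tested, 4 were called lower and none higher in knockdown neurites (24.8% of all genes called). Their median ratio change was -0.88; neither edgeR nor DESeq2 called any of the 10 for the ratio, with 4 lower by edgeR and 1 by DESeq2 at an unadjusted p under 0.05. Without knockdown soma sample 1, which held 2369 CPM of SNHG14 against at most 1787 in the other 3, the SNHG14 value was -0.42 and not called (adjusted p = 0.0632). Under library sizes no member was called in soma, neurites or the ratio, with KCNQ1OT1 at 0.41, -0.28 and -0.69 and wider errors. RN7SL1 took 11.2 to 29.5% of counts in control neurites and 3.52 to 20.7% in knockdown neurites, and its part in these errors was not tested.

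**Figure D4:**
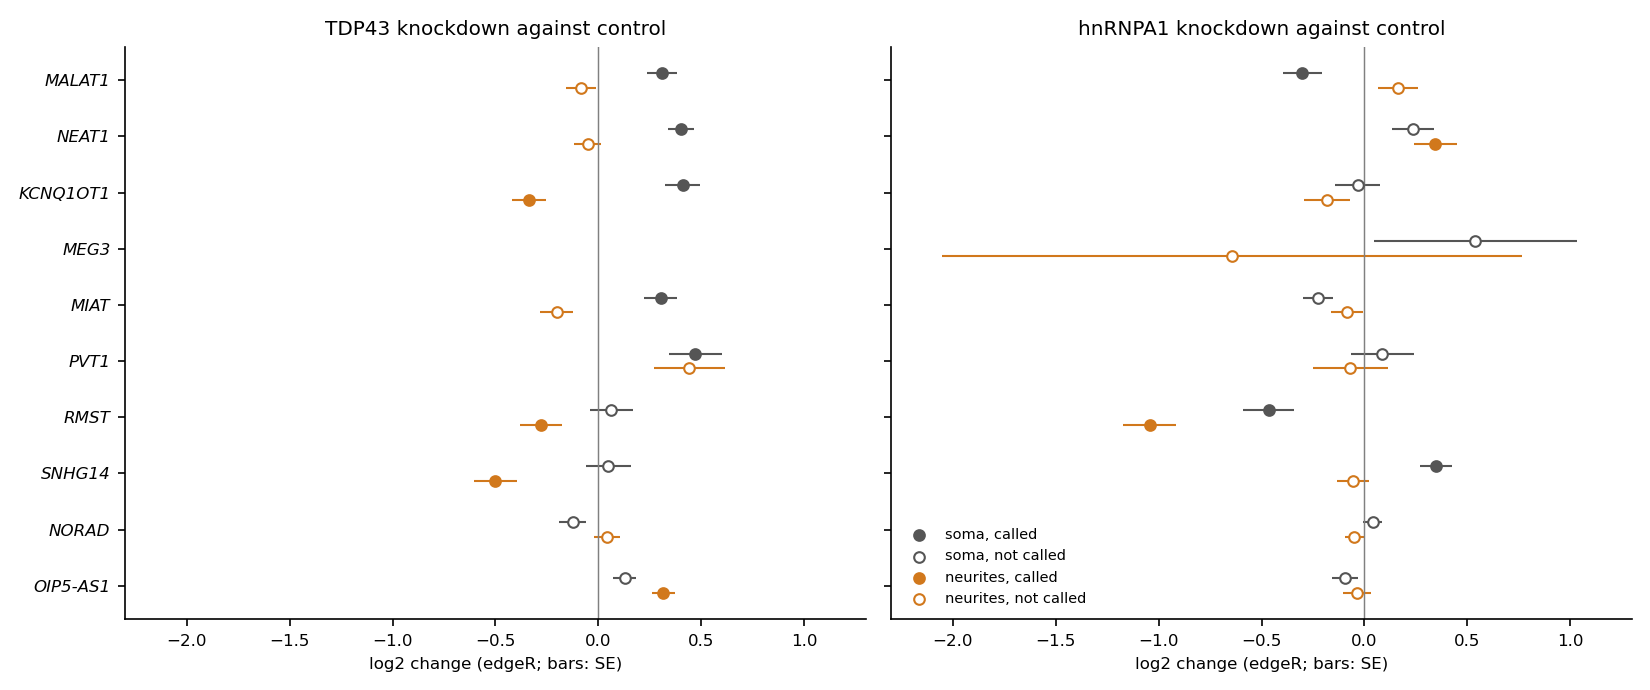
Log2 change of each member in TDP43 knockdown (left) and hnRNPA1 knockdown (right) against the controls of the same experiment, in soma (grey) and neurites (orange), with SE as bars and filled points for adjusted p under 0.05. In TDP43 knockdown KCNQ1OT1 stands at 0.41 in soma and -0.34 in neurites; in hnRNPA1 knockdown RMST stands at -0.47 and -1.04; MEG3 was not tested on the left. Under library sizes in place of TMM the left panel holds no call.

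The knockdowns were compared with each other in the fit of all 10 groups. In soma the effect of hnRNPA1 knockdown was lower than that of TDP43 knockdown for MALAT1 (-0.64 ± 0.14, adjusted p = 0.000869) and MIAT (-0.55 ± 0.14, adjusted p = 0.00656), and 7.64% of all genes were called. In neurites it was lower for RMST (-0.79 ± 0.18, adjusted p = 0.00162) and OIP5-AS1 (-0.38 ± 0.10, adjusted p = 0.00448) and higher for SNHG14 (0.42 ± 0.13, adjusted p = 0.0227), with 10.8% of all genes called. Without TDP43-experiment control neurite sample 4 the SNHG14 difference was 0.30 (adjusted p = 0.117), and under library sizes it was 0.21 (adjusted p = 0.44). The MIAT call in soma was also lost under library sizes (-0.58, adjusted p = 0.0522). RMST, at -0.55 ± 0.19 in soma (adjusted p = 0.0551), was called without any 1 of 4 libraries: hnRNPA1-experiment control soma sample 1 or 6, hnRNPA1 knockdown soma sample 6, or TDP43-experiment control soma sample 4 (-0.62 to -0.59). The KCNQ1OT1 differences, -0.47 ± 0.18 in soma and 0.13 ± 0.18 in neurites, were not called, the first being called (-0.56) without hnRNPA1-experiment control soma sample 6.

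Messenger RNAs of proteins that work with these RNAs were read from lists of their own. Of 24 paraspeckle proteins, the partners of NEAT1, 4 rose and none fell in TDP43 knockdown soma (FAM98A the most, 0.30 ± 0.09), 6 rose and 3 fell in neurites (ARID1B the highest and RBM14 the lowest, -0.34 ± 0.06), and 2 rose and 1 or 2 fell in hnRNPA1 knockdown. Their median change in TDP43 knockdown was 0.05 in soma and neurites alike. Of all genes, 18.9% were called in TDP43 knockdown soma and 24.8% in its neurites. In hnRNPA1 knockdown these shares were 7.09% and 16.2%. No list was tested against these shares. Of 24 nuclear speckle proteins, 3 rose and none fell in TDP43 knockdown soma, and DDX39B, an RNA helicase, was the lowest in neurites against soma in all 5 conditions (-1.51 ± 0.15 in untreated cells). ELAVL1, an RNA-binding protein on the list of partners of NORAD and OIP5-AS1, rose in TDP43 knockdown neurites (0.28 ± 0.06).

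Of 31 listed neighbours of the member loci 21 were tested in the TDP43 experiment. In soma 4 of them rose and 3 fell (18.9% of all genes called), with DLK1, beside MEG3, the highest at 0.91. In neurites 3 rose and 2 fell (24.8% of all genes called). UBE3A, KCNQ1 and MYC are named here by choice after their values were seen. At the SNHG14 locus, UBE3A, whose paternal copy SNHG14 is known to silence, rose in TDP43 knockdown soma (0.29 ± 0.05) and neurites (0.28 ± 0.05). SNRPN, at the start of the same transcription unit, stood at -0.09 ± 0.07 in soma and fell by 0.32 in neurites, and MAGEL2 fell by 0.50 in soma. At the KCNQ1OT1 locus, CDKN1C, a cell cycle inhibitor, rose in TDP43 knockdown soma (0.37 ± 0.09) and neurites (0.41 ± 0.10), and KCNQ1 stood at 0.14 ± 0.22 and 0.15 ± 0.29. MYC, beside PVT1, rose in both fractions (0.43 ± 0.07 and 0.33 ± 0.08). Of 26 other long noncoding RNAs, 22 were tested in the TDP43 experiment, of which 4 rose and 2 fell in soma (18.9% of all genes called). After knockdown 4 had a lower and none a higher neurite to soma ratio (LINC-PINT the lowest, -0.67 ± 0.19). Of all genes, 10.5% were called for that ratio, and 4.67% were lower. SNHG6, a host of small nucleolar RNAs, was the highest of this list in neurites in 4 conditions, at 4.05 ± 0.13 in untreated cells.

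Over all 51 libraries, the 3 genes of most like log2 CPM were found for each member among 18430 genes with a mean of at least 1 CPM. These correlations describe libraries that share experiments, fractions and kits. MIAT was most like DDX39B (r = 0.963), MIR124-2HG and MIR124-1HG (0.959 and 0.954). RMST was most like IMPG2 (0.968), MUC20-OT1 and PALS2, and NORAD was most like MAP2, a dendritic cytoskeleton gene (0.942), and the mitochondrial genes MT-CO1 and MT-ND1 (0.927 and 0.925). MALAT1 was most like FILIP1L (0.854), NEAT1 most like FAR1 (0.869), KCNQ1OT1 most like LINC00342 (0.821), PVT1 most like LINC00923 (0.915), OIP5-AS1 most like ZNF33B (0.871), and MEG3 most like EPIC1 (0.972). SNHG14 was most like RNU6-25P (0.821). No member was among the 3 genes most like another; the closest pair of members was MEG3 and PVT1 (0.877), both highest in untreated cells.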

How the data were processed

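RNA-seq of 52 libraries was read from a deposited table of expected counts per gene. Per the submitters' processing notes the authors used STAR 2.7.11b, featureCounts (Subread 2.0.6) and hg38; 81.1% of nonzero deposited values were whole within 0.005, and values were rounded. The sources used here do not give strand and multi-mapping settings. One library with 541 counts was left out (limit 100000 counts), leaving 51 with 2.54 to 28.9 (in units of 1e+06) counts. No 2 libraries of a group agreed within sampling noise (chi-square per degree of freedom 1.91 to 162 over 108 pairs).

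Separate fits per experiment used edgeR 4.0.16 in R 4.3.3 (filterByExpr, TMM, quasi-likelihood F test, 1 coefficient per group, Benjamini-Hochberg over all genes); a fit of all 10 groups gave differences between experiments. Within-library ratios were compared with exact 2-sided permutation tests. Scripts were tested on simulated data. Alternatives were library sizes, DESeq2 1.42.0, no filter, rounding down, the replicate block and leaving out each library. Neurite and soma libraries share sample numbers in their titles, and the main fits did not use these numbers. Deviations from the group mean were correlated between libraries of the same number. Every such pair had r over 0.1 in 2 comparisons: the fractions of TDP43 knockdown (r = 0.11 to 0.237 over 4 pairs) and TDP43 knockdown against control soma (0.157 to 0.26 over 3 pairs). The fractions of untreated cells gave r = 0.0888 to 0.144 over 4 pairs. In these and in TDP43 knockdown, all 4 neurite libraries were most like the soma library of their own number.

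Members and gene lists were chosen with earlier results of these data known. Named genes were the members, the called genes of highest and lowest log2 change in each list and comparison, and the 3 genes most like each member (Pearson r of log2 CPM). UBE3A, KCNQ1 and MYC fall outside this rule and were chosen after their values were seen. The TACTAAC motif was added after the other 4 motifs had been chosen and the data seen. Sequences came from GENCODE release 29 transcripts.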

Additional observations from a re-analysis of the deposited data

Results flagged for a closer look

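Of 100 sets of 4 to 6 libraries (10 members in 10 groups), 5 held 1 library far from the others, where chance gives about 1 in 20. MEG3 stood at 3.57 CPM in hnRNPA1 knockdown soma sample 3 (next highest 0.886) and at 0.452 CPM in TDP43-experiment control soma sample 5 (next 0.0849). MIAT stood at 427 CPM in TDP43-experiment control soma sample 2 (next lowest 505) and at 297 CPM in TDP43 knockdown neurite sample 1 (next highest 232). SNHG14 stood at 2369 CPM in TDP43 knockdown soma sample 1 (next highest 1787).

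A tested difference between fractions, conditions or knockdowns passed for the following. The neurite to soma ratio was lower after TDP43 knockdown for MALAT1 (-0.39), NEAT1 (-0.45), KCNQ1OT1 (-0.75), MIAT (-0.50) and SNHG14 (-0.55). It differed between untreated cells and the hnRNPA1-experiment controls for NEAT1 (-1.35), MIAT (-1.37), PVT1 (-0.78), RMST (1.75) and NORAD (-0.30). Against the TDP43-experiment controls it differed for MALAT1 (-0.47), NEAT1 (-1.34), MIAT (-1.21) and RMST (1.55). The effects of hnRNPA1 and TDP43 knockdown differed in soma for MALAT1 (-0.64) and MIAT (-0.55), and in neurites for RMST (-0.79), SNHG14 (0.42) and OIP5-AS1 (-0.38). All are log2 values from edgeR's quasi-likelihood test.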

How the results depend on the processing

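Library sizes in place of TMM turned 13 member values between neurites and soma that were called under at least 1 of the scalings: MALAT1 to -1.17 (untreated), -0.28 (hnRNPA1-experiment controls) and -0.26 (TDP43-experiment controls), KCNQ1OT1 to -0.99 (untreated), -0.38 (hnRNPA1 knockdown) and -0.41 (TDP43-experiment controls), NORAD to -0.80, -0.056 and -0.19 in the same 3 conditions as KCNQ1OT1, NEAT1 to -0.35, -0.33 and -0.54 in the hnRNPA1-experiment controls, hnRNPA1 knockdown and TDP43-experiment controls, and RMST to -0.024 in hnRNPA1 knockdown. It also turned KCNQ1OT1 (-0.14) and PVT1 (-0.11) in the hnRNPA1-experiment controls and PVT1 (-0.36) in hnRNPA1 knockdown, not called under either. It called 10 members in untreated cells, 0 in TDP43 knockdown soma, neurites and ratio, 9 and 9 in the comparisons of untreated cells with the 2 sets of controls, and 1 in the difference between knockdowns in soma. Counts over all genes became 16965 (untreated), 14532 (hnRNPA1 knockdown fractions), 71 (hnRNPA1 ratio change), 16427 (TDP43-experiment controls), 1677, 2580 and 328 (TDP43 knockdown soma, neurites and ratio) and 1114 (knockdown difference in soma). DESeq2 called 1 member and 77 genes for the hnRNPA1 ratio change and 3 members between untreated cells and the hnRNPA1-experiment controls. With no filter on low counts these were 3 members and 140 genes for the hnRNPA1 ratio change, and 4 members for the knockdown difference in soma.

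Leaving out each library in turn gave 1 to 4 members in hnRNPA1 knockdown soma, 1 to 2 in neurites, 0 to 1 members and 12 to 73 genes (35 with all libraries) for its ratio change, 2 to 4 members for the knockdown difference in soma, and 846 to 1657 genes (1444 with all) between the 2 sets of controls. The log2 ratio of NORAD to MALAT1 in hnRNPA1 knockdown ran from -0.235 to -0.095, and that of NEAT1 to MALAT1 in TDP43 knockdown from -0.42 to -0.27. Fits with the replicate block called 55 genes for the hnRNPA1 ratio change, and paired tests gave a NORAD to MALAT1 difference of 0.59 (exact p = 0.125) in TDP43 knockdown and NEAT1 to MALAT1 differences of -0.28 (exact p = 0.0625) in the TDP43-experiment controls and -0.42 (exact p = 0.125) in TDP43 knockdown, where so few pairs cannot reach 0.05. The block changed no member's call in the 2 comparisons where every pair of the same number passed the limit on r. Elsewhere it newly called KCNQ1OT1 in untreated cells and hnRNPA1-experiment controls, OIP5-AS1 in the latter and MIAT in hnRNPA1 knockdown soma. MEG3, at 0 to 47 counts per library outside untreated cells, and PVT1, at 18 to 285 in all groups, rested on few counts.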
